A study of Mus musculus with 26 samples.

Results

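Ada, Adk, Nt5e, Adora1, Adora2a, Slc29a1 and Ahcy are the genes followed here. They were taken as a set of 7 genes that make, move, sense or remove adenosine, and each was read from the array probe sets whose annotation names that gene alone. Such probe sets existed for 5 of the 7 members: 15 for Ada, 14 for Adk, 11 for Nt5e, 22 for Slc29a1 and 4 for Ahcy, or 66 of the 269751 probe sets on the array. The expression of Adora1 and Adora2a was not analysed here. The level of a gene is the mean of the log2 signals of its probe sets, and levels were obtained for 23152 genes in all.

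The cells were neural stem cells from E14.5 embryos of wild-type C57BL6 mice, and a lentivirus carried a transgene into every sample. The first set had 3 pools of cells, each given MYBtr, MYBQKI5, MYBQKI6 and QKItr on 1 array apiece and the control eGFP on 2 arrays, which were averaged, so n = 3 for every group. In a second set, all 8 samples carried MYBQKI6, and Qk was suppressed in 5 of them and the bacterial control gene LacZ in the other 3. The names of the Qk-suppressed samples hold a first number (5, 6 or 9) that the labels do not explain, and a second number. Second numbers 1 and 3 recur among these samples, which were fitted as 1 group. MYBQKI is the fusion of the transcription factor MYB with the RNA-binding protein QKI that is known from angiocentric glioma, Qk is the mouse gene of QKI, and the labels do not explain tr. Nothing in the labels ties a pool or a sample number to an animal or culture of its own, so the spread behind each p-value may be technical. In a bulk sample, a change in the share of cells that express a gene and a change in RNA per cell cannot be told apart.

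Adenosine is a purine nucleoside that cells use both as a signal and as a building block. Outside the cell it is cut from AMP by CD73, the product of Nt5e. It is sensed by G protein-coupled receptors, among them the products of Adora1, which inhibits adenylyl cyclase, and Adora2a, which stimulates it. It enters through the equilibrative transporter ENT1 (Slc29a1). Inside, adenosine kinase (Adk) returns it to AMP, adenosine deaminase (Ada) turns it into inosine, and S-adenosylhomocysteine hydrolase (Ahcy) releases it from the by-product of methylation reactions. Ada is a described target of MYB, and in the brain Adk of glial cells is a main route of adenosine removal.

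The upstream sequences of a pair of genes that moved (Ada and Enpp1, an ecto-enzyme described below) and of a pair that did not pass the test (Adk and Nt5e) are shown first, because MYB proteins bind a short DNA motif with the core AACNG. Each line holds the 250 bases before the annotated start in RefSeq GRCm38.p6, read 5′ to 3′ on the strand of the gene, with every AACNG, on either strand, in capitals. For Adk the window of the most upstream of 2 annotated starts is given.
Ada, chr2:163750240-163750489, minus strand: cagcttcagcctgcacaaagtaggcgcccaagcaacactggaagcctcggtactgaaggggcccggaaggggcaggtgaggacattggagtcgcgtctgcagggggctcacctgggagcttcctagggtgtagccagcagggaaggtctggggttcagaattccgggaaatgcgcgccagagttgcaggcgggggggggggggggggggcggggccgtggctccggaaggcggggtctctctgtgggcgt
Enpp1, chr10:24712160-24712409, minus strand: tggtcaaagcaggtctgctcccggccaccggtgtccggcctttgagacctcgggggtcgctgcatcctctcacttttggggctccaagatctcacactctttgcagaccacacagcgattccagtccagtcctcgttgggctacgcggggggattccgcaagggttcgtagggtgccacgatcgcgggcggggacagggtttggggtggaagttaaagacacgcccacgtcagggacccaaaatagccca
Adk, chr14:21052324-21052573, plus strand: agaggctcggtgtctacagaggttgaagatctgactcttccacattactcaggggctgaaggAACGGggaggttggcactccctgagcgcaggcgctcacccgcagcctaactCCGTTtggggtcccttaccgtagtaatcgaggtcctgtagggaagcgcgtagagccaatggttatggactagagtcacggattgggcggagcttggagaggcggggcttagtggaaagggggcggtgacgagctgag
Nt5e, chr9:88327359-88327608, plus strand: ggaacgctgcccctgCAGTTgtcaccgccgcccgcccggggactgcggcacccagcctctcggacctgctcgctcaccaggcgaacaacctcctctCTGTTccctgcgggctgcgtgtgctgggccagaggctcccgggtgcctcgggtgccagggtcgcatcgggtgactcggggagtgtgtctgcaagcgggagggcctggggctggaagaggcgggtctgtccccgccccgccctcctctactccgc
Neither the Ada nor the Enpp1 window held the motif. The Adk window shown held 2 matches, which began at positions -188 and -137 counted from the start, and the other Adk window held 0. The Nt5e window held 2, at -235 and -154. Among the other members, the window of Ahcy held 1 match, and 7 of the 8 windows annotated for Slc29a1 held at least 1. Of 2 windows annotated for Adora1, 1 held 2 matches. The motif is common: 74.2% of 32851 promoter windows of this length held it, with a mean of 1.46 matches per window. A match is a description of the letters, and a window without one says nothing about MYB binding there or elsewhere in the gene.

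The labels were checked first. The level of Myb was 7.12 to 7.36 with MYBtr, 6.80 to 7.34 with MYBQKI5 and 7.10 to 7.89 with MYBQKI6, against 4.30 to 5.18 in eGFP cells, so the samples labelled as carrying a MYB construct stood apart from the controls. Qk differed from LacZ suppression by -0.22 in the Qk-suppressed cells (SE 0.15, limma adjusted p = 1.00), so the suppression itself did not pass the test in the gene mean. Of 11 neural stem cell markers measured, 10 lay above the median gene in eGFP cells, among them Vim at 11.11, while Prom1 was low at 3.47. Of 6 astrocyte markers 5 also lay above it, and of 8 neuron markers 4 did, with Map2 at 9.99. Of 8 microglia and immune markers, 1 did, and their mean level was 3.94 to 4.42 in every pool sample. The mean level of 6 astrocyte markers was 5.72 to 6.06 with MYBtr, 5.46 to 6.17 with MYBQKI5 and 5.77 to 6.16 with MYBQKI6, against 6.12 to 6.45 in eGFP cells, so that it was lower on average with these constructs, and MYBQKI5 and MYBQKI6 overlapped eGFP. The mean level of the 11 neural stem cell markers was 8.259 to 8.610 with MYBtr, 8.420 to 8.555 with MYBQKI5 and 8.304 to 8.575 with MYBQKI6, against 8.581 to 8.605 in eGFP cells. MYBQKI5 and MYBQKI6 lay below eGFP, though the highest MYBQKI6 value (8.575) was close to the lowest eGFP value (8.581). The share of single genes that lie below eGFP in this way was not counted. The mean level of 5 oligodendrocyte markers was 4.80 to 5.08 with MYBtr, 4.88 to 5.24 with MYBQKI5 and 4.96 to 5.16 with MYBQKI6, against 4.80 to 4.91 in eGFP cells. MYBQKI6 lay above eGFP without overlap there, an arrangement that 6.62% of single genes showed, and the share for means of 5 genes was not counted. QKItr cells had 4.80 to 5.04 for these markers, which overlapped both eGFP and MYBQKI6. Their means were 6.27 to 6.47 for the astrocyte markers and 8.578 to 8.598 for the neural stem cell markers, which overlapped eGFP. The part of such markers in the results below was not tested.

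Ada was higher with every construct that contains MYB and was not higher with QKItr. It reached 5.92, 5.83 and 5.77 in pools 1, 2 and 3 with MYBtr. With MYBQKI5 it was 5.89, 5.60 and 6.05, and with MYBQKI6 it was 6.47, 6.18 and 6.03. QKItr cells had 4.78, 5.20 and 5.03, and eGFP cells had 5.02, 4.98 and 5.21 in the same pools. All 9 samples with a MYB construct thus lay above all 6 samples with QKItr or eGFP, an arrangement that 1.54% of all genes showed. In eGFP cells the level of Ada was close to that of the median gene (4.99), and how much of it is background signal was not tested.

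**Figure D1:**
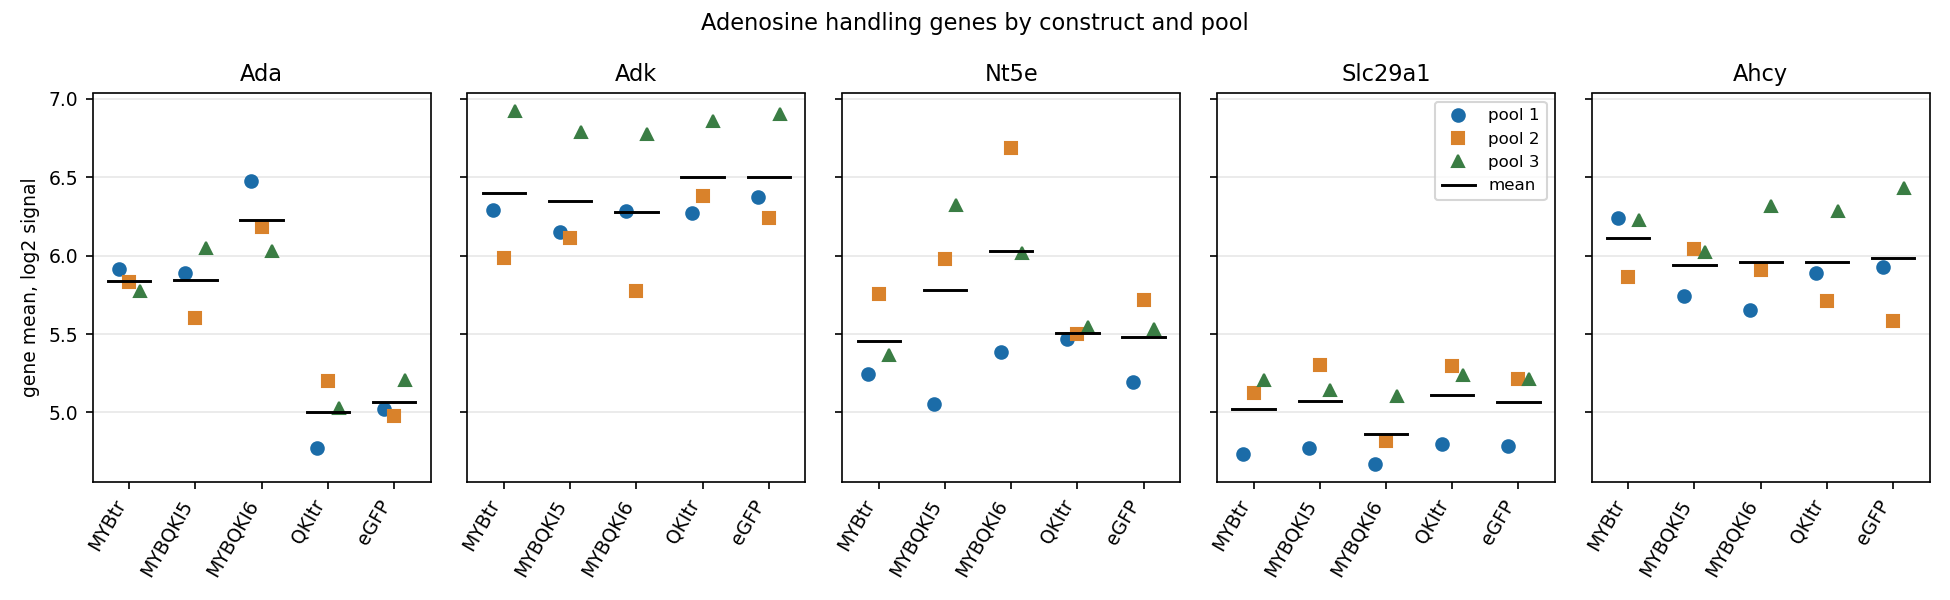
Levels of the 5 measured genes (log2 signal, mean over probe sets) by construct, with 1 point per pool and a line at the mean of 3 pools. Ada separates the 3 MYB constructs from QKItr and eGFP, whereas Adk is highest in pool 3 and Slc29a1 lowest in pool 1 in every group.

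The size of the Ada difference was tested in each construct against eGFP, with limma on all 23152 genes and adjusted p under 0.05 as the call. These comparisons share the eGFP samples. MYBQKI6 cells averaged 6.23 ± 0.22 and eGFP cells 5.07 ± 0.12 (SD, n = 3 each), a difference of 1.16 on the log2 scale (SE 0.16, 2.23-fold, adjusted p = 0.0036). Ada was the 1 member called of the 5 measured, in a comparison that called 0.765% of all genes, and the difference was 1.45, 1.20 and 0.82 in pools 1, 2 and 3. MYBtr cells averaged 5.84 ± 0.07, which was 0.77 above eGFP (SE 0.16, 1.71-fold, adjusted p = 0.0269). Ada was again the 1 member called, beside 1.37% of all genes. MYBQKI5 cells averaged 5.85 ± 0.22, 0.78 above eGFP (1.71-fold, adjusted p = 0.0649), so that no member was called there and 0.199% of all genes were. With the pool number as a block the adjusted p for Ada with MYBQKI5 was 0.0162, and Ada was then called with each of the 3 MYB constructs (that fit called 5.97% of all genes with MYBtr, 2.63% with MYBQKI5 and 4.39% with MYBQKI6).

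The calls for single constructs rest on few samples. That for MYBtr was lost without pool 1, 2 or 3 of eGFP, and without pool 1 or 2 of MYBtr (adjusted p = 0.0574 to 0.134). That for MYBQKI6 held in each of these fits with 1 sample left out (0.0043 to 0.0333), but with the median of the probe sets in place of the mean its adjusted p was 0.0504. In a fit of only the groups compared it was 0.0524.

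The mean of the 3 MYB constructs gave a call that did not rest on 1 sample. It was 5.97, which was 0.90 above eGFP (SE 0.13, 95% confidence interval 0.63 to 1.18, adjusted p = 0.0029). Ada was the 1 member called, in a comparison that called 2% of all genes, or 7.07% with the block. Against QKItr the difference was 0.97 (SE 0.13, interval 0.69 to 1.24, adjusted p = 0.0013), and 2.95% of all genes were called, or 10.4% with the block. With any 1 sample left out, these differences stayed called, at 0.86 to 0.97 against eGFP and 0.86 to 1.07 against QKItr. QKItr itself differed from eGFP by -0.07 in Ada (interval -0.40 to 0.27, adjusted p = 1.00), in a comparison in which limma called 0% of all genes in either fit and 362 genes had an unadjusted p under 0.05.

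Among the constructs the order of Ada levels was MYBQKI6, MYBQKI5, MYBtr, eGFP and QKItr. The ranges of MYBQKI6 and MYBQKI5 overlapped, at 6.03 and 6.05 in pool 3, and those of MYBQKI5 and MYBtr did too, as did those of QKItr and eGFP. MYBQKI6 exceeded MYBtr by 0.39 (interval 0.05 to 0.73, unadjusted p = 0.0268, adjusted p = 1.00) and did so in all 3 pools, by 0.56, 0.35 and 0.26. It exceeded MYBQKI5 by 0.38 (interval 0.05 to 0.72, adjusted p = 1.00), in 2 of 3 pools. MYBQKI5 differed from MYBtr by 0.01 (interval -0.33 to 0.34). Between these constructs limma called 0% of all genes in either fit, while 604, 404 and 849 genes had an unadjusted p under 0.05 without the block in these 3 comparisons.

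The 15 probe sets of Ada did not move alike. The difference from eGFP was positive for 13 of 15 in MYBtr cells, 13 in MYBQKI5 cells and 14 in MYBQKI6 cells, and for 6 in QKItr cells. Its median over the probe sets was 0.72 in MYBtr cells, 0.66 in MYBQKI5 cells and 1.25 in MYBQKI6 cells, against -0.02 in QKItr cells. Probe sets 17394067, 17394068, 17394069 and 17394074 were more than 1 above eGFP with each MYB construct. The largest differences were those of 17394074, with 2.00 for MYBtr, 1.85 for MYBQKI5 and 2.09 for MYBQKI6.

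Of these, probe set 17394069 passed the test. It read 5.82, 6.32 and 6.46 with MYBtr, 6.54, 6.28 and 6.62 with MYBQKI5, and 6.96, 6.83 and 6.49 with MYBQKI6. In QKItr cells it read 4.11, 4.03 and 4.26, and in eGFP cells 5.25, 4.89 and 4.93. Every MYB sample exceeded every eGFP sample, and every QKItr sample lay below every eGFP sample. The share of all probe sets with such an arrangement was not counted. Tested over all 269751 probe sets, 17394069 was the 1 probe set of Ada called with MYBQKI6 (1.73, SE 0.22, adjusted p = 0.0080), where 0.113% of all probe sets were called. It was also the 1 called with MYBQKI5 (1.45, adjusted p = 0.0355, 0.0652% of all), and with MYBtr it was called only with the pool block (1.17, adjusted p = 0.0650 without the block, where 0.185% of all were called, and 0.0492 with it, where 0.533% were). Its difference of -0.89 with QKItr did not pass (interval -1.37 to -0.41, adjusted p = 1.00), and 0.00222% of all probe sets were called there. With the mean of the 3 MYB constructs, 1 of the 15 was called against eGFP (0.356% of all) and 3 against QKItr (0.744% of all). With the block these were 2 (1.1% of all) and 5 (2.34% of all).

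The brightest probe set of Ada, 17394077, behaved otherwise. It averaged 7.29 ± 0.31 in MYBtr cells, 7.46 ± 0.14 in MYBQKI5 cells, 7.42 ± 0.12 in MYBQKI6 cells and 7.50 ± 0.08 in QKItr cells, against 7.50 ± 0.09 in eGFP cells (SD, n = 3 each). Its difference from eGFP was -0.21 with MYBtr (interval -0.63 to 0.21), -0.04 with MYBQKI5 and -0.08 with MYBQKI6, so a gene level taken from the brightest probe set alone would show no rise of Ada. The probe set with the next ID, 17394078, was also within 0.5 of eGFP with each MYB construct. Which exons or transcripts of Ada these probe sets read is not given in the sources used here.

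**Figure D2:**
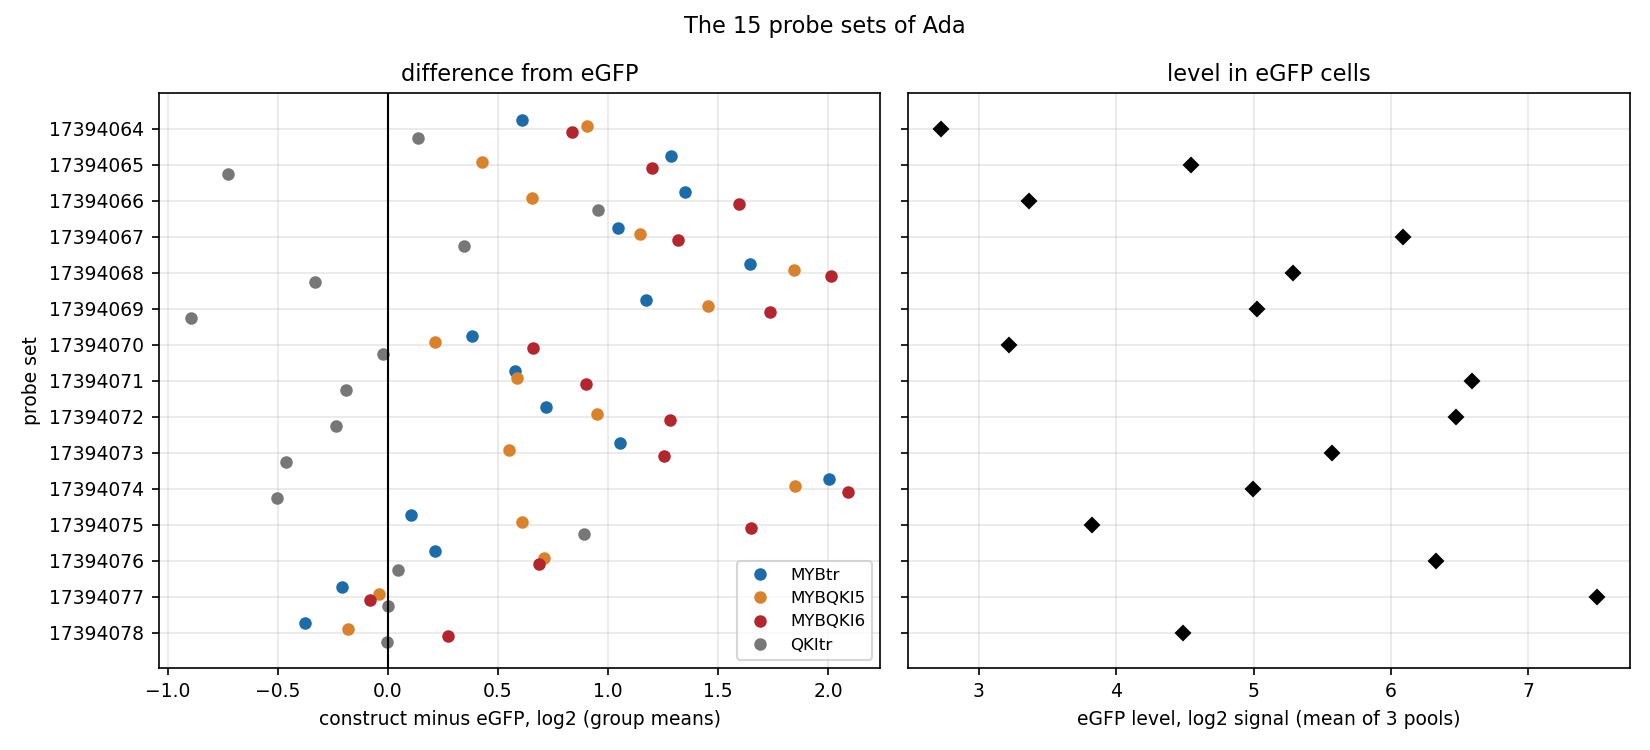
The 15 probe sets of Ada, in order of their ID. Left, the difference of each construct from eGFP in group means (log2); right, the mean level in eGFP cells (log2 signal, n = 3). The MYB constructs lie right of 0 in most rows and near 0 in the last pair, which includes the brightest probe set at 7.50.

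Nt5e, which encodes the ectonucleotidase CD73, varied more within constructs than between them. It was 5.24, 5.76 and 5.36 in pools 1, 2 and 3 with MYBtr, 5.05, 5.98 and 6.32 with MYBQKI5, and 5.38, 6.69 and 6.02 with MYBQKI6. QKItr cells had 5.47, 5.50 and 5.54, and eGFP cells had 5.20, 5.72 and 5.53. MYBQKI6 lay above eGFP in each pool, by 0.19, 0.97 and 0.48, but its samples overlapped those of eGFP. The mean difference was 0.55 (interval -0.14 to 1.24, adjusted p = 0.853). With the pool block the limma interval was 0.08 to 1.02 (unadjusted p = 0.0254), and the adjusted p was 0.233. The mean difference was 0.30 with MYBQKI5 (interval -0.39 to 0.99 without the block), -0.03 with MYBtr (interval -0.72 to 0.66) and 0.02 with QKItr.

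Of the 11 probe sets of Nt5e, 1 passed a test. Probe set 17520083 read 6.24, 7.33 and 6.55 with MYBQKI6, against 4.20, 5.33 and 5.42 in eGFP cells, and these did not overlap. In gene means, 6.62% of all genes had MYBQKI6 wholly above eGFP, and the share of probe sets was not counted. The difference of this probe set was 1.72 (SE 0.38, adjusted p = 0.152), and it was called with the pool block (adjusted p = 0.0369), where 0.301% of all probe sets were. The other 10 probe sets of Nt5e were not called with any construct in either fit. The difference with MYBQKI6 was positive in 10 of the 11 and had a median of 0.56.

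Adk, the kinase that returns adenosine to AMP, varied more between pools than between constructs. In pool 3 it was 6.92 in MYBtr cells, 6.79 in MYBQKI5 cells, 6.78 in MYBQKI6 cells, 6.86 in QKItr cells and 6.90 in eGFP cells. In pool 2 the same groups had 5.99, 6.11, 5.77, 6.38 and 6.24, and in pool 1 they had 6.29, 6.15, 6.28, 6.27 and 6.37. Pool 3 was the highest in every group. MYBQKI6 averaged 6.28 ± 0.50 and eGFP 6.50 ± 0.35 (SD, n = 3 each), a difference of -0.23 (interval -0.87 to 0.41, adjusted p = 1.00). With the block, which takes the pools off, the interval was -0.49 to 0.03 and the adjusted p 0.447. MYBtr differed from eGFP by -0.11, MYBQKI5 by -0.15 and QKItr by -0.00.

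Slc29a1, the transporter ENT1, was lowest in pool 1 in every group. There it was 4.74 in MYBtr cells, 4.78 in MYBQKI5 cells, 4.67 in MYBQKI6 cells, 4.80 in QKItr cells and 4.79 in eGFP cells. In pools 2 and 3 it was 5.12 and 5.21 with MYBtr, 5.30 and 5.14 with MYBQKI5, and 4.82 and 5.11 with MYBQKI6. QKItr cells had 5.29 and 5.24 there, and eGFP cells 5.21 and 5.21. All constructs overlapped eGFP. MYBQKI6 differed from eGFP by -0.20 (interval -0.63 to 0.22, adjusted p = 1.00, and 0.427 with the block), lower in each of the 3 pools. The differences of MYBtr, MYBQKI5 and QKItr were -0.05, 0.00 and 0.04. The 22 probe sets fall in 2 runs of IDs, and none was called with any construct.

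Ahcy, the hydrolase of the methylation cycle, showed no difference that passed. It was 6.24, 5.86 and 6.22 in pools 1, 2 and 3 with MYBtr, 5.75, 6.04 and 6.03 with MYBQKI5, and 5.65, 5.91 and 6.31 with MYBQKI6. QKItr cells had 5.89, 5.71 and 6.28, and eGFP cells had 5.93, 5.58 and 6.43. Every construct overlapped eGFP, with differences of 0.13 for MYBtr (interval -0.36 to 0.61), -0.04 for MYBQKI5, -0.02 for MYBQKI6 and -0.02 for QKItr. Its 4 probe sets also fall in 2 runs of IDs. Whether both runs read the same gene, and not a near copy, was not tested.

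The share of the spread over the 15 pool samples puts the members side by side. For Ada, 91.2% of the sum of squares lay between constructs and 0.29% between pools. For Adk it was 6.45% between constructs and 85.6% between pools, for Slc29a1 14.8% and 75.9%, for Ahcy 5.89% and 56.6%, and for Nt5e 27.2% and 42.6%. Ada was the 1 member with a larger share between constructs than between pools. The shares were not corrected for there being more constructs than pools, and were not compared with those of all genes.

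Around the members, 88 other genes of adenosine and purine handling were measured, of 93 listed in 8 groups. Their median difference from eGFP with the mean of the MYB constructs was -0.04, beside -0.0066 over all genes. In that comparison 2 were called higher and 2 lower without the block, and 3 higher and 6 lower with it, where 2% and 7.07% of all genes were called. With MYBtr alone 2 of the 88 were called without the block and 10 with it, beside 1.37% and 5.97% of all genes. With MYBQKI5 it was 1 and 5, beside 0.199% and 2.63%, and with MYBQKI6 1 and 4, beside 0.765% and 4.39%. None was called with QKItr.

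The ecto-enzymes held the largest rise. Enpp1, which cleaves extracellular ATP to AMP and pyrophosphate, was 6.02, 6.85 and 6.07 with MYBtr, 5.93, 5.83 and 6.18 with MYBQKI5, and 6.47, 7.00 and 6.20 with MYBQKI6. It was 4.78, 4.69 and 4.89 with QKItr and 4.84, 4.75 and 4.73 with eGFP. All 9 samples with a MYB construct lay above all 6 with QKItr or eGFP, as for 1.54% of all genes. Enpp1 rose by 1.54 in MYBtr cells (adjusted p = 0.0039). The rise was 1.21 in MYBQKI5 cells (0.0487) and 1.79 in MYBQKI6 cells (0.0017), while QKItr cells differed by 0.02. Its brightest probe set, like that of Ada, did not show this (0.13 with MYBtr, 0.38 with MYBQKI5 and -0.05 with MYBQKI6), and the call with MYBQKI5 was lost without any 1 sample of MYBQKI5 or of eGFP (adjusted p = 0.0982 to 0.225). Enpp2, the secreted lysophospholipase autotaxin, was lower by 0.64 with the mean of the MYB constructs (adjusted p = 0.0809, and 0.0020 with the block), and by 0.81 against QKItr (adjusted p = 0.0203). In the fit with the block, Enpp2 was also called lower with MYBtr, MYBQKI5 and MYBQKI6 each. Alpl, the tissue-nonspecific alkaline phosphatase, had -0.41 (0.824, and 0.0376 with the block). The other measured members of this group were not called.

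Among the receptors, P2ry2, a receptor for extracellular ATP and UTP, was 4.55 to 4.63 with MYBtr, 4.57 to 4.94 with MYBQKI5 and 4.64 to 4.93 with MYBQKI6, against 5.15 to 6.18 in eGFP cells. It fell by 0.85 with the mean of the MYB constructs (adjusted p = 0.0460), a call lost without any 1 of the 12 samples (adjusted p = 0.0532 to 0.300). Those fits had no block. In the fit with the block and all samples, P2ry2 was called lower with that mean, with MYBtr and with MYBQKI5. P2rx7, an ATP-gated channel, was 0.64 higher than with QKItr (adjusted p = 0.0134), and 0.36 higher than with eGFP (adjusted p = 0.222), and with the block it was called with MYBQKI6 (0.49, adjusted p = 0.0437). With the block only, P2ry6 was lower than with QKItr (-0.42, adjusted p = 0.0475). Of 9 transporters and channels, Slc29a2 (-0.52, adjusted p = 0.0417) and Slc29a4 (-0.44, adjusted p = 0.0156), both equilibrative transporters, were lower than with QKItr in the fit with the block. Panx1, an ATP release channel, was lower with MYBtr than with eGFP in that fit (-0.41, adjusted p = 0.0319). Of 7 nucleotidases, Nt5c2 was higher with MYBtr in it (0.52, adjusted p = 0.0440).

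In the methionine cycle, which Ahcy serves, both directions occurred. Mtr, methionine synthase, was 8.08, 7.84 and 7.49 with MYBtr, against 6.90, 6.92 and 7.06 in eGFP cells, and rose by 0.84 (adjusted p = 0.0225). It was 0.61 higher with the mean of the MYB constructs (adjusted p = 0.0288). Mat2a, which makes S-adenosylmethionine, fell by 0.57 with that mean (adjusted p = 0.0386). The call of Mtr with MYBtr was lost without any 1 sample but pool 3 of MYBtr (adjusted p = 0.0574 to 0.1203). With the mean of the MYB constructs, Mtr lost its call in 7 of 12 such fits (0.0535 to 0.164) and Mat2a in 10 of 12 (0.0527 to 0.306), in each case including those without any 1 of the eGFP samples. Those fits had no block. In the fit with the block and all samples, Mtr was called with that mean and with MYBtr. Mat2a was called lower there with that mean and with MYBtr, MYBQKI5 and MYBQKI6 each. Amd1, S-adenosylmethionine decarboxylase, was lower by 0.54 and called only with the block (adjusted p = 0.0185). Ahcy itself was not called beside them.

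**Figure D3:**
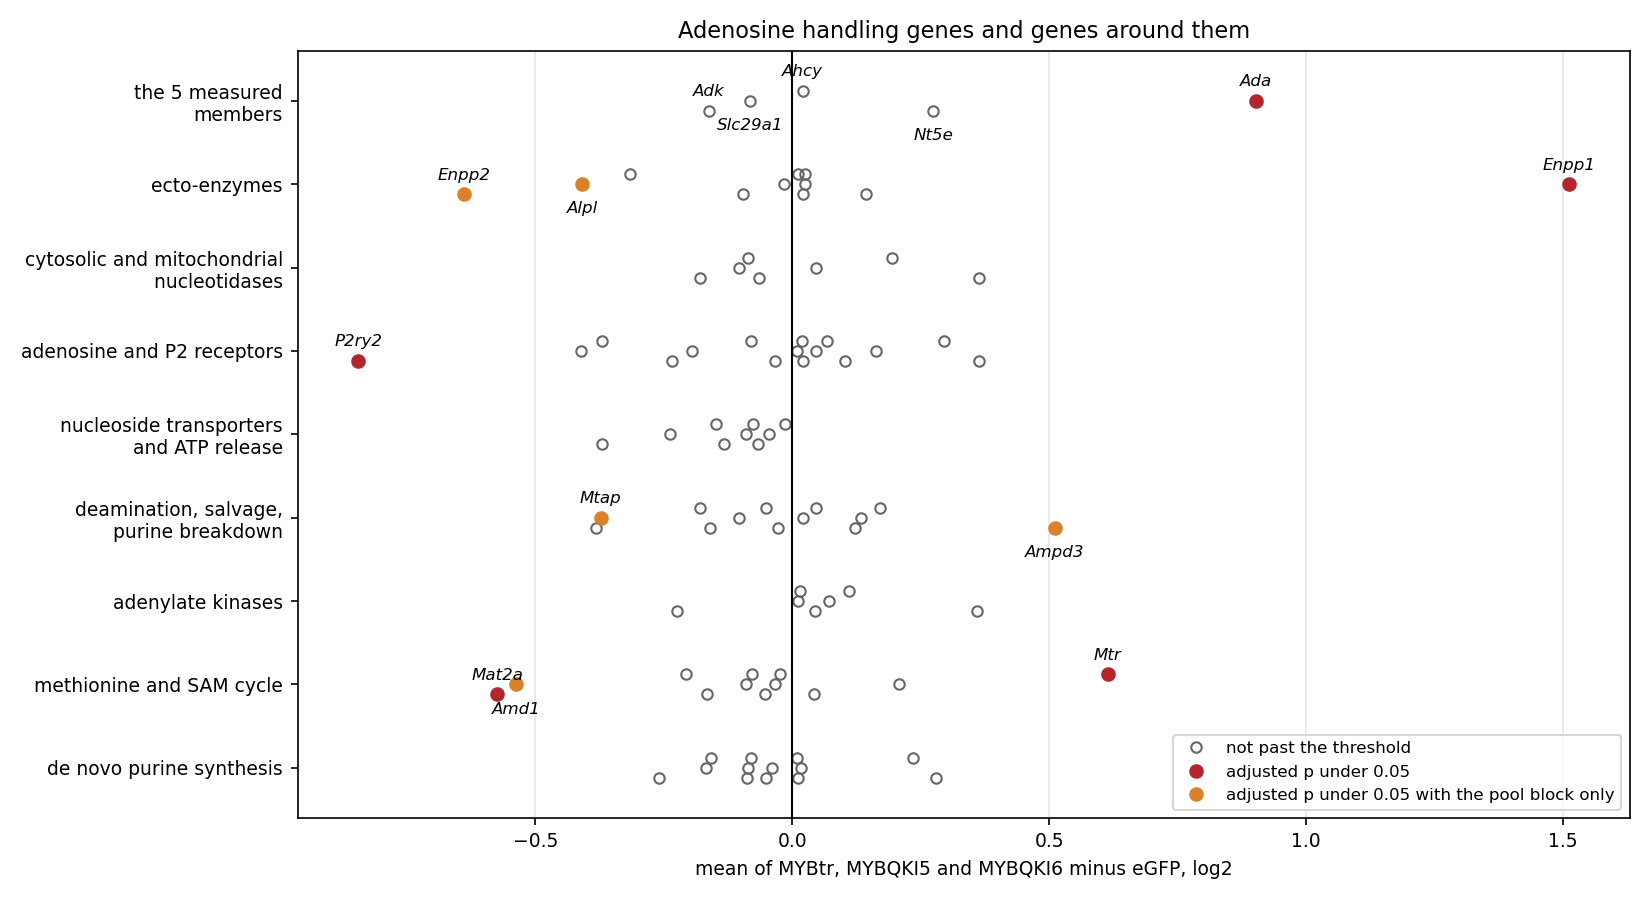
Difference between the mean of the 3 MYB constructs and eGFP (log2, gene means) for the 5 measured members in the top row and 88 related genes below, 1 circle per gene. Red circles passed the test and orange circles passed it only with the pool block, and Ada (0.90) and Enpp1 (1.51) lie farthest to the right while most genes lie near 0.

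Purine breakdown, salvage and synthesis genes gave few calls. Ampd3, which deaminates AMP to IMP, was 0.51 higher with the mean of the MYB constructs and called only with the block (adjusted p = 0.0227). Mtap, which salvages adenine from methylthioadenosine, was 0.37 lower and called only with the block (adjusted p = 0.0239). Adal, which resembles Ada in sequence, was not called. Ak5, an adenylate kinase, was 0.62 lower than with QKItr (adjusted p = 0.0225), Ak9 was 0.59 higher with MYBtr (adjusted p = 0.0830, and 0.0303 with the block) and Adss, adenylosuccinate synthase, was 0.46 higher with MYBtr (adjusted p = 0.253, and 0.0492 with the block). The genes next by unadjusted p were Bst1, Acpp, Nt5c1a, Nt5c, P2ry10, P2ry14, Panx2, Slc28a1, Pnp2, Pnp, Ak8, Ak4, Bhmt, Ahcyl2, Gmps and Gart, and none of these was called in any comparison.

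In MYBQKI6 cells, the samples with Qk suppression and those with LacZ suppression overlapped for all 5 members. Qk itself averaged 9.48 with Qk suppression and 9.70 with LacZ suppression. It was 9.35 in the sample with first number 5, 9.30 and 9.46 in those with 6, and 9.70 and 9.58 in those with 9. The samples with LacZ suppression had 9.68 to 9.74. The difference between the 2 means did not pass the test, and the first number was not fitted. Whether the members depend on Qk was therefore not tested. Ada was 4.67, 4.91, 5.37, 5.39 and 5.55 in the 5 samples with Qk suppression, against 4.70, 5.13 and 5.31 in the 3 with LacZ suppression. The groups overlapped, and the means of 5.18 and 5.05 differed by 0.13 (interval -0.36 to 0.63, adjusted p = 1.00). Adk differed by -0.18, Nt5e by 0.26 (interval -0.09 to 0.60), Slc29a1 by 0.16 and Ahcy by -0.01. Nt5e was 4.47, 4.65, 4.68, 4.81 and 4.94 with Qk suppression, against 4.35, 4.36 and 4.66 with LacZ suppression, and it overlapped too. No member was called, nor any of the 88 related genes, in a comparison that called 0.00432% of all genes. Fitting the second number of the sample names as a block called none either (Ada 0.17, adjusted p = 0.846).

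In Adk, the samples of this set numbered 2 resembled each other, while those numbered 1 or 3 were spread more widely. Adk was 7.26 with Qk suppression and 7.10 with LacZ suppression in the samples numbered 2, and 5.68 and 6.18 with Qk suppression against 6.03 with LacZ suppression in those numbered 1. In those numbered 3 it was 6.77 and 6.28 with Qk suppression against 6.71 with LacZ suppression. Ada was alike in the samples numbered 2 (5.37 and 5.31). In those numbered 3 it was not, with 5.39 and 5.55 with Qk suppression against 4.70 with LacZ suppression. The probe sets of Ada that responded in the pools differed in their scatter here. Probe set 17394074 read 3.93 to 5.67 with Qk suppression and 1.43 to 6.33 with LacZ suppression. Its low value of 1.43 came from the LacZ sample numbered 3, in which 17394068 also read low, at 1.24. Probe set 17394067 read 5.44 to 6.41 with Qk suppression and 5.81 to 7.07 with LacZ suppression. Both sets contained cells with MYBQKI6, but array medians were 5.39 to 5.51 here and 5.61 to 5.74 in the pool set, which look normalized apart. The level of 6.23 for Ada with MYBQKI6 in the pools was therefore not set against these values by any test.

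**Figure D4:**
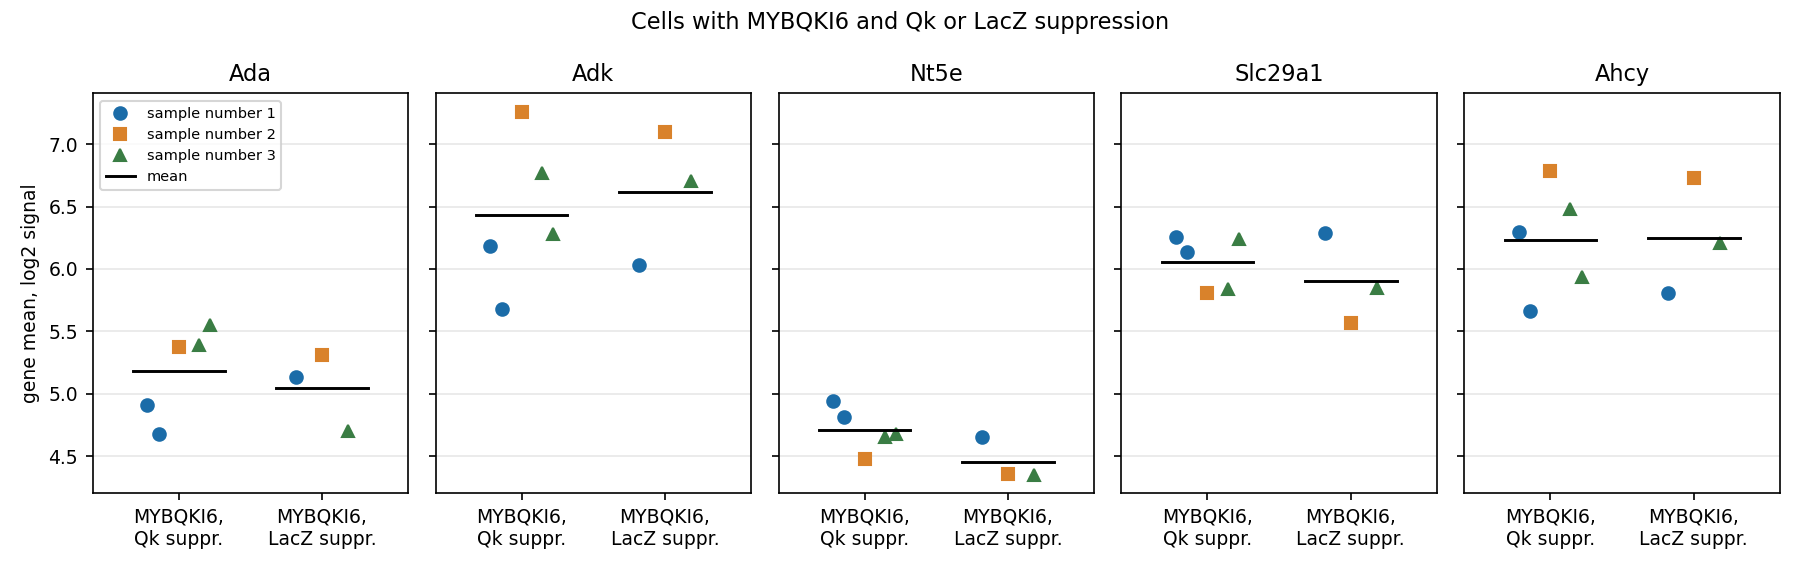
Levels of the 5 measured genes (log2 signal) in cells with MYBQKI6, with Qk suppression (5 samples) left of LacZ suppression (3 samples), marked by the second number of the sample name, with a line at the mean. The groups overlap for each gene, and Adk and Ahcy are highest in the samples numbered 2.

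The 5 genes whose pattern was most like that of Ada over the 15 pool samples were found by Pearson's r after the mean of each pool was taken off, among 4587 genes with at least 3 probe sets and a range of at least 1. They were Ankrd28, a subunit of protein phosphatase 6 complexes (r = 0.968), Lrrc8b (0.963) and Lrrc8c (0.960), subunits of volume-regulated anion channels, Pde3b, a cyclic nucleotide phosphodiesterase (0.960), and Mcub, which belongs to the uniporter complex for calcium in mitochondria (0.960). The samples share constructs and pools, so r describes likeness only. Mcub was 2.77 higher with MYBQKI6 than with eGFP, Lrrc8b 1.71, Pde3b 1.69, Ankrd28 1.46 and Lrrc8c 1.05. These genes were chosen for their likeness to Ada in the same samples, so that they rose follows from the choice. The same r of Ada was 0.46 with Nt5e, -0.57 with Adk, -0.62 with Slc29a1 and -0.06 with Ahcy, so none of the members followed it closely. The genes next to Ada in the RefSeq order, Serinc3, Pkig, Ccn5 and Kcnk15, were not called with any MYB construct, and the largest difference among them was 0.63 for Pkig with MYBQKI6 (adjusted p = 0.659).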

How the data were processed

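Total RNA was biotin-labelled and read on Affymetrix arrays by the standard protocol, per the labels' protocols. The deposited values are log2 signals per probe set, judged from their range (0.22 to 14.6). The authors' normalization is not given in the sources used here. Of 269751 probe sets, 233753 named 1 gene, 5106 several and 30892 none; among gene symbols 2189 were updated and 88 were not matched to RefSeq. Gene means were tested in limma 3.58.1 (R 4.3.3; figures with matplotlib 3.10.9, Python 3.11.15, pandas 2.3.3) by group means, with Benjamini-Hochberg adjustment over 23152 genes, or 269751 probe sets. The pool and suppression sets were fitted apart. Samples with the same number deviated together (30 pairs in the pool set, r = 0.31 to 0.72, and 5 pairs in the suppression set, 0.22 to 0.57), so values or calls with the number as a block stand beside many of the results whose call they change. The fits without a block were tested on simulated data with independent samples. That test could not judge the block or the likeness of samples with the same number. Alternatives were other gene summaries, normalization, filters and left-out samples. Array number limits the precision. The members, lists and tests were chosen with earlier results of these data known. Related genes were named if called in any comparison in either fit, plus the next 2 of each list by unadjusted p. Probe sets that name several genes were left out.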

Additional observations from a re-analysis of the deposited data

How the results depend on the processing

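The direction of Ada with each MYB construct held under all alternatives but 1. Taking only the probe set with the highest mean turned Ada to -0.21 with MYBtr, -0.042 with MYBQKI5, -0.081 with MYBQKI6, 0.0024 with QKItr, -0.039 for MYBQKI6 against MYBQKI5, and -0.11 for the mean of the MYB constructs against eGFP and -0.11 against QKItr. It gave Nt5e 0.083 with MYBtr and -0.40 with Qk suppression, Ahcy 0.17 with MYBQKI5 and 0.10 with MYBQKI6, and Enpp1 -0.046 with MYBQKI6. It called 100, 18, 47, 203 and 304 genes for MYBtr, MYBQKI5, MYBQKI6 and the mean of the MYB constructs against eGFP and against QKItr, and 0 with Qk suppression. The pool number as a replicate block, a pairing the samples bear out, called 1383, 609, 1017, 1638 and 2401 in that order. In it Ada with MYBQKI5 (0.78) passed, and Ahcy with Qk suppression was 0.080. The median of the probe sets gave 179, 24 and 80 genes for the single constructs and 448 against QKItr. With it Ada was 1.03 with MYBtr and 1.44 with MYBQKI6, neither past the threshold, and -0.036 with Qk suppression. Slc29a1 was -0.22 with MYBQKI5 and -0.10 with QKItr, Ahcy 0.0035 with MYBQKI6, 0.24 with QKItr and 0.012 with Qk suppression, and Nt5e -0.35 with QKItr.

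Probe sets above percentile 25 gave Ada -0.0025 for MYBQKI5 against MYBtr. Quantile normalization gave 70 genes with MYBQKI5 and Adk 0.025 with QKItr. Testing only genes above the median gene gave 81 genes with MYBQKI5, and Ada passed there (0.78). The first eGFP array of each pool alone gave Ada 0.89 with MYBQKI5, now past the threshold, and 0.050 with QKItr, Nt5e 0.0029 with MYBtr, and Slc29a1 -0.095 with MYBQKI5 and -0.057 with QKItr. The second alone gave Ada 0.66 with MYBtr, no longer past it, Slc29a1 0.052 with MYBtr, Ahcy 0.055 with MYBQKI5, 0.077 with MYBQKI6 and 0.078 with QKItr, Adk 0.0030 and Nt5e -0.0052 with QKItr. A fit of only the groups compared gave 37 genes with MYBtr and 27 with MYBQKI6, and Ada missed the threshold in both (0.77 and 1.16). The cause was not tested.

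Without 1 sample at a time, genes called ranged from 52 to 456 with MYBtr, 11 to 32 with MYBQKI5, 23 to 244 with MYBQKI6, 113 to 598 for the mean against eGFP, 212 to 926 against QKItr, 0 to 1 for MYBQKI6 against MYBQKI5, 0 to 3 for MYBQKI5 against MYBtr, and 0 to 1 with Qk suppression. Ada ranged from 0.73 to 0.84 with MYBtr, -0.094 to 0.13 for MYBQKI5 against MYBtr, -0.17 to 0.048 with QKItr and -0.041 to 0.26 with Qk suppression. Adk ranged from -0.37 to 0.10 with MYBtr, -0.37 to 0.045 with MYBQKI5, -0.48 to 0.025 with MYBQKI6, -0.18 to 0.20 with QKItr and -0.47 to 0.064 with Qk suppression. Nt5e ranged from -0.18 to 0.091 with MYBtr and -0.12 to 0.14 with QKItr. Slc29a1 ranged from -0.19 to 0.10 with MYBtr, -0.14 to 0.15 with MYBQKI5, -0.10 to 0.20 with QKItr and -0.012 to 0.35 with Qk suppression. Ahcy ranged from -0.072 to 0.35 with MYBtr, -0.24 to 0.18 with MYBQKI5, -0.22 to 0.20 with MYBQKI6, -0.22 to 0.20 with QKItr and -0.24 to 0.23 with Qk suppression. The last 4 genes were not past the threshold in any of these fits.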
